A study of Rattus norvegicus with 26 samples.

Results

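Thoracic aorta from male rats of the spontaneously hypertensive strain (SHR), which develops high blood pressure by inheritance, was compared between animals given Songling Xuemaikang capsule (SXC), a herbal preparation used in China for hypertension, at its higher dose and animals given saline. The arrays were chosen by their titles alone: 6 arrays of high-dose SXC (708.75 mg per kg by mouth for 4 weeks) and 8 arrays of saline (7.5 mL per kg by mouth for 4 weeks), 14 of the 26 arrays of the series. All rats were killed at 28 days, and the RNA of each aorta was extracted separately. The ages of the rats, the hour at which the aortas were taken and the hour at which saline was given were not stated in the sources used here, and no group of rats with normal blood pressure was analysed here. The remaining 12 arrays, of low-dose SXC (236.25 mg per kg) and valsartan (21.6 mg per kg), served to estimate the spread, and the low dose was also set against the high dose.

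The wall of the thoracic aorta is built mainly of smooth muscle cells between sheets of elastin, with an inner lining of endothelium and an outer adventitia of fibroblasts, fat, nerve and resident immune cells. Smooth muscle contracts when calcium activates myosin light chain kinase, and it relaxes through potassium channels and through the nitric oxide and cyclic GMP pathway. Adrenergic, endothelin and prostanoid receptors set the balance between both states. In whole tissue, fewer cells of a type and less RNA per cell cannot be told apart.

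Levels are log2 intensities of 1 probe per gene relative to the 75th percentile of the same array, so that a difference of 1 between groups is a 2-fold difference. The 8 saline arrays were scanned 82 days after the last treated array, and 0 scan days held both groups, so the treatment and the time of the scan cannot be told apart anywhere below. High-dose arrays 1 and 2 were scanned at the detector gain of the saline arrays (353 and 354 V), and high-dose arrays 3 to 6 at a lower one (323 to 325 V). These sets of high-dose arrays shared no slide and no scan day, so gain, slide and scan day cannot be told apart between them. The share of probes well above background was 67.3% to 76.2% on saline arrays, 79.3% and 72.0% on high-dose arrays 1 and 2, and 28.7% to 68.6% on high-dose arrays 3 to 6, array 3 being the dimmest. Saline arrays 8 and 4 lay close to the average of 2 other saline arrays (SD of the log2 difference 0.15 and 0.16, against 0.21 for the closest treated array), and several pairs of saline arrays deviated together from the mean of the group, arrays 2 and 4 (r = 0.81), 1 and 4 (0.78) and 3 and 7 (0.77) most, over 7278 probes. The 8 saline arrays may therefore hold fewer than 8 independent samples. The number of arrays limits the precision, and the median standard error of a difference was 0.30.

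Of 12240 named genes tested, 7080 (57.8%) passed the limma test at a Benjamini-Hochberg adjusted p under 0.05. Of these, 4297 rose (35.1%) and 2783 fell (22.7%), and these percentages are the background for the counts of list members below. The median gene differed by 0.18, and this shift was -0.23 after quantile normalisation and 0.44 after normexp background correction. Over all 23744 probes 62.5% of the 13549 calls (57.1% of probes) were higher, a share that was 41.7% after quantile normalisation, 41.9% in the authors' deposited values and 76.7% after normexp correction. A rise or fall is called steady below if the test passed, every high-dose array lay on the same side of every saline array, and the sign held in high-dose arrays 1 and 2 alone and under 4 other ways of scaling the arrays. Steady calls were made for 2317 rises (18.9%) and 1267 falls (10.4%). Genes that were faint in saline rose more often: in the 25% of genes with the lowest saline level 57.5% rose and 0.654% fell, while in the 25% with the highest level 28.2% rose and 31.8% fell. Of all named genes, 188 did not stand well above background on any array of the saline group, and all 188 rose. Genes of that kind entered the test only through treated arrays, so their direction follows from the filter. Among the 4520 genes well above background on all 14 arrays, 40.5% rose and 21% fell. The median difference in the faintest 25% was 0.70 in high-dose arrays 1 and 2 and 1.64 in arrays 3 to 6.

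**Figure D1:**
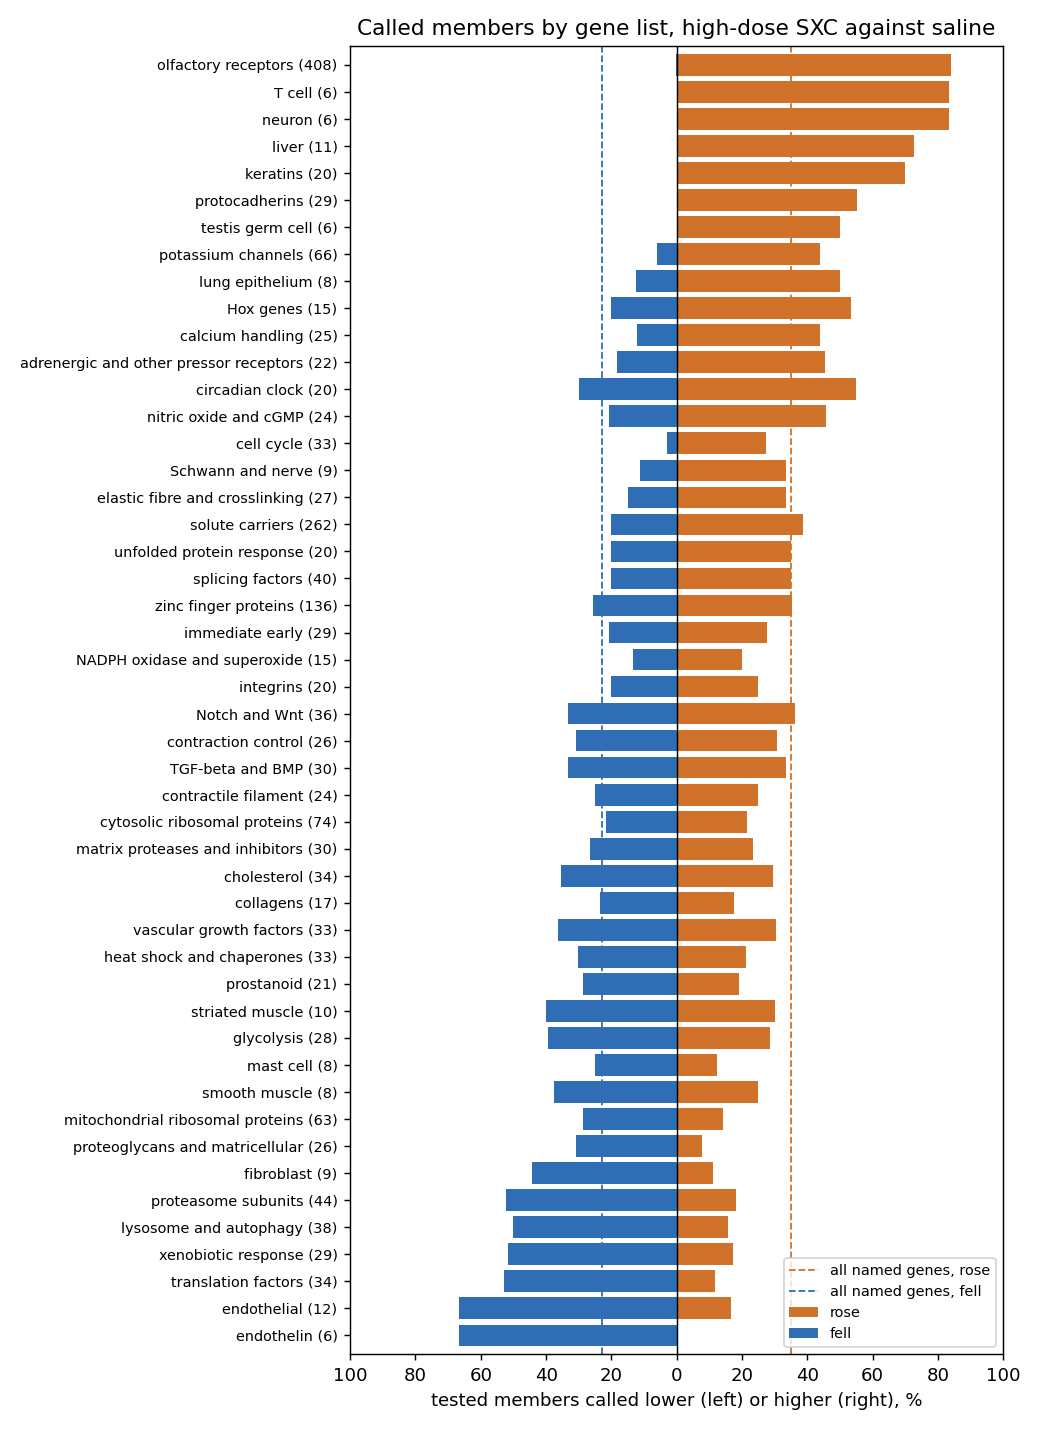
Share of tested members called lower (left, blue) or higher (right, orange) in high-dose SXC for each gene list, in percent, with the number of members tested in brackets; dashed lines mark the shares over all 12240 named genes (22.7% and 35.1%). Olfactory receptors lie far to the right (84.1% rose), while endothelin, endothelial, translation factor, xenobiotic, lysosome and proteasome lists lie to the left.

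Outside the blood, macrophage and fat marker lists and provisional gene symbols, 384 steady falls were well above background on all 14 arrays. The largest of them included genes of the adventitia, of steroid-responsive transcription and of fatty acid breakdown. Scara5, a ferritin receptor of adventitial fibroblasts, ran from 3.41 through a median of 3.90 to 4.34 in saline and from 0.04 through 0.97 to 1.17 in high-dose SXC. The groups lay far apart, and the difference was -3.05 ± 0.18 (SE; adjusted p = 7.2e-12). Glul, glutamine synthetase, ran from 2.10 through 3.34 to 4.05 in saline and from -0.46 through 0.06 to 0.20 in high-dose SXC, a difference of -3.18 ± 0.26 (SE). Tsc22d3, the glucocorticoid-induced leucine zipper, ran from 3.04 through 3.88 to 4.64 in saline and from 0.20 through 1.26 to 1.55 in high-dose SXC (-2.77 ± 0.24, SE). Mt1, a metallothionein that binds zinc and is induced by metals and glucocorticoids, ran from 4.16 through 4.69 to 5.02 in saline and from 1.85 through 1.96 to 2.14 in high-dose SXC (-2.65 ± 0.18, SE). For each of these genes every high-dose array lay below the lowest saline array, and the fall was nearly as large in arrays 1 and 2 (-2.83, -3.08, -2.44 and -2.73 for Scara5, Glul, Tsc22d3 and Mt1) as in arrays 3 to 6 (-3.16, -3.23, -2.93 and -2.62).

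Genes of fatty acid beta-oxidation in mitochondria and peroxisomes were also among the largest falls. Ech1 and Eci1, isomerases that prepare unsaturated fatty acids for breakdown, fell by 2.95 and 2.65, and Hadhb, a subunit of the mitochondrial trifunctional protein, fell by 2.59. Their saline levels were widely spread: Ech1 ran from 0.95 to 4.42 with an SD of 1.44 (n = 8), while the high-dose arrays lay between -0.92 and -0.25. Each high-dose array nonetheless lay below the lowest saline array. Of 17 white fat markers 10 fell, 1 of them steadily, and of 9 brown fat markers 1 fell and 1 rose. The mean level of the white fat markers was highest on saline arrays 3 and 7 (3.11 and 3.03). It ran from -1.09 to 2.38 on the other saline arrays and from -2.05 to 0.12 on the high-dose arrays. On saline arrays 1 and 5 this mean (-1.04 and -1.09) lay below that of high-dose arrays 2 to 6 (-0.54 to 0.12). Ech1 on those saline arrays (1.00 and 0.95) lay above every high-dose array. The part of fat in the falls was not tested.

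The matrix and secreted genes among the largest falls were Dcn, decorin, a small proteoglycan that binds collagen fibrils (-2.64 ± 0.23, SE), Gpc3, a membrane-bound glypican (-2.59), and C4a, complement component 4 (-2.80 ± 0.19, SE). Pecam1, an adhesion molecule of endothelial cells that blood cells also carry, fell by 2.68 and Slc28a2, a sodium-coupled nucleoside transporter, by 2.58. Pkhd1l1 fell by 3.75, although dim high-dose array 3 (-0.18) lay far above the others (-3.61 to -2.75). The globins Hbb-bs (-6.49) and Hbe2 (-5.98) had the largest falls among these genes, and belong with the red cell genes, of which Hbb-b1, named after its value was seen, fell by 6.23.

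**Figure D2:**
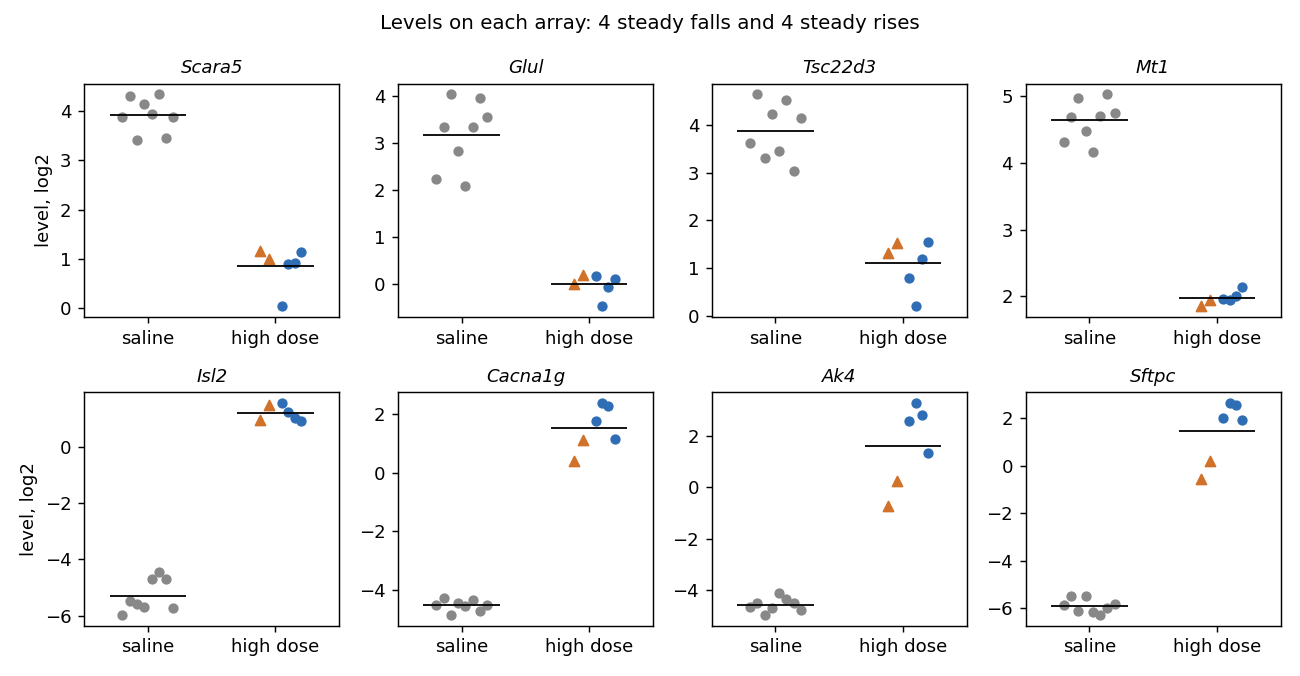
Level (log2 relative to the 75th percentile of the array) of 4 steady falls (top) and 4 steady rises (bottom) on each array; grey points are the 8 saline arrays, orange triangles high-dose arrays 1 and 2, blue points high-dose arrays 3 to 6, and lines the group means. Scara5, Glul, Tsc22d3 and Mt1 lie at like levels on both kinds of high-dose array, while Ak4 and Sftpc lie lower on arrays 1 and 2 than on arrays 3 to 6.

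The largest steady rises were in genes of varied kinds, described here with the tissues they are best known from. Sftpc, lung surfactant protein C, ran from -6.28 through -5.92 to -5.49 in saline and from -0.57 through 1.98 to 2.65 in high-dose SXC, a difference of 7.36 ± 0.57 (SE; adjusted p = 2.31e-10). Isl2, a homeodomain factor of motor neurons, ran from -5.97 through -5.52 to -4.45 in saline and from 0.91 through 1.10 to 1.54 in high-dose SXC (6.45 ± 0.38, SE). Cacna1g, the T-type calcium channel Cav3.1, ran from -4.86 through -4.52 to -4.29 in saline and from 0.41 through 1.47 to 2.38 in high-dose SXC (6.05 ± 0.59, SE). The groups did not overlap for any of these genes. The others among the 15 largest were the bitter taste receptor Tas2r116 (6.71), the synaptic vesicle protein Rph3a (6.80), the nicotinic receptor subunit Chrna6 (6.26), the homeobox genes Nkx6-2 (5.96) and Drgx (5.81), and the olfactory receptors Or52ae7 (6.38) and Or6aa1b (5.81). They also included Ak4, a mitochondrial adenylate kinase (6.13), Gpx2, a glutathione peroxidase of the gut (5.99), the phospholipase-like Pla2g12b (6.39), and Fam161a (6.11) and Cfap276 (5.87), both found in cilia.

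Most of the steady differences were larger in the arrays of lower gain. Among steady genes well above background on all 14 arrays, 785 of 1048 rises (74.9%) and 305 of 390 falls (78.2%) were larger in arrays 3 to 6, with medians of 1.05 in arrays 1 and 2 and 1.32 in arrays 3 to 6 for the rises and of -0.81 and -1.13 for the falls. The median of the 15 largest rises was 4.98 in high-dose arrays 1 and 2 and 6.81 in arrays 3 to 6, and 14 of the 15 were larger in arrays 3 to 6. The exception was Isl2, at 6.48 and 6.44. The median of the 15 largest falls was -2.73 in arrays 1 and 2 and -2.85 in arrays 3 to 6, and 9 of the 15 were larger in arrays 3 to 6. Gain moves with these sizes, but so do slide and scan day, which also differed between both sets of arrays. The part of each was not tested.

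**Figure D3:**
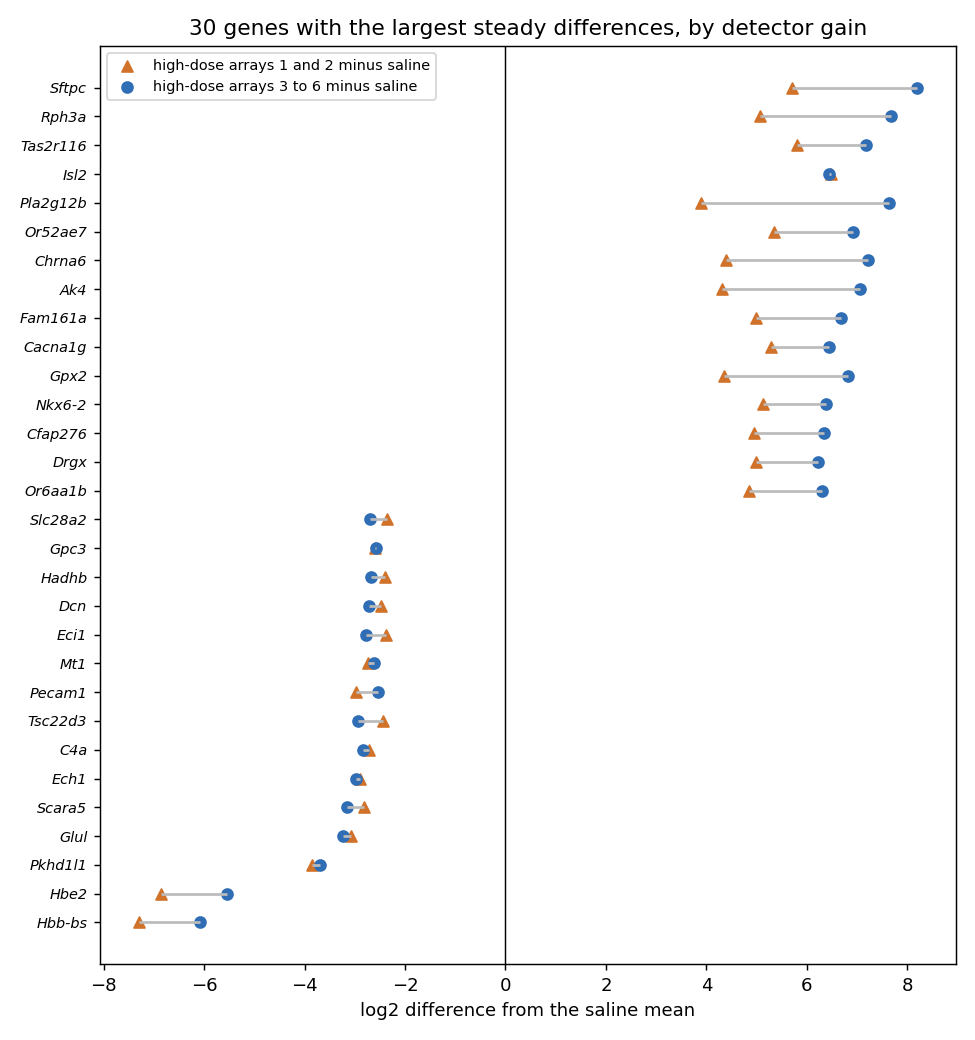
Log2 difference from the saline mean for the 15 largest steady rises and 15 largest steady falls, in high-dose arrays 1 and 2, scanned at the gain of saline (orange triangles), and in arrays 3 to 6, scanned at a lower gain (blue points). The difference lies farther from 0 in arrays 3 to 6 for 14 of the 15 rises and for 9 of the 15 falls, with the globins Hbb-bs and Hbe2 farther from 0 in arrays 1 and 2. Over all 390 steady falls well above background on all 14 arrays, 78.2% were larger in arrays 3 to 6.

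Of 8 markers that define smooth muscle 2 rose and 3 fell, none of them steadily, and the median was -0.43. All but Myocd, a transcriptional coactivator faint on 1 high-dose array, were well above background on all 14 arrays. Named after their values were seen, Smtn, smoothelin, rose by 1.17 ± 0.24 (SE), Des, desmin, fell by 1.01 ± 0.24 (SE) and Lmod1, an actin nucleator, fell by 1.23 ± 0.21 (SE). The call of Lmod1 was lost in arrays 1 and 2 alone (-0.60, adjusted p = 0.0826), and its other probe differed in the opposite direction. Myocd differed by 0.66 ± 0.25 (SE), and its call was lost under 13 alternatives, among them quantile normalisation (0.31, adjusted p = 0.3). The mean level of the markers ran from 2.44 to 2.79 over the high-dose arrays and from 2.85 to 3.36 over 6 saline arrays, and was lowest on saline arrays 3 and 7 (2.11 and 1.63), the arrays with the highest fat markers. Myh11, smooth muscle myosin heavy chain, ran from 4.54 through 5.29 to 5.44 in saline and from 4.67 through 4.85 to 5.08 in high-dose SXC, and the difference of -0.25 ± 0.14 (SE) did not pass (adjusted p = 0.142). It passed without saline array 7 (-0.33, adjusted p = 0.0401) or without saline array 3 (-0.32, adjusted p = 0.0485). Acta2, smooth muscle actin, differed by -0.49 ± 0.38 (SE; adjusted p = 0.269), and without saline array 7, whose level was the lowest, it fell by 0.88 (adjusted p = 0.00276). Of 24 contractile filament genes 6 rose and 6 fell, shares of 25% each, with a median of -0.19. Only Vim, vimentin, among the steady falls (-1.10 ± 0.13, SE), and the Z-disc protein Pdlim3, among the steady rises (1.85 ± 0.30, SE), met the stricter rule. Tagln, transgelin, fell by 0.57 but its groups overlapped, and the call was lost in high-dose arrays 1 and 2 alone (-0.47, adjusted p = 0.226).

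Of 26 genes that control contraction 8 rose (30.8%) and 8 fell (30.8%). Calm2, 1 of the genes for calmodulin, the calcium sensor that switches on myosin light chain kinase, rose by 0.74 ± 0.14 (SE), while its sister gene Calm3 fell by 1.58 ± 0.24 (SE). The fall of Calm3 was larger in arrays 3 to 6 (-2.10) than in arrays 1 and 2 (-0.54), and with gain as a block it did not pass (adjusted p = 0.0733). Rgs5, a brake on receptor-coupled G proteins in mural cells, fell by 1.96 ± 0.31 (SE). Mylk, the kinase itself, differed by 0.62, but its call was lost under 7 alternatives, at adjusted p-values of 0.0509 (saline as 3 averages) to 0.129 (replicate number as a block, 0.42), arrays 3 to 6 alone (0.45, adjusted p = 0.127) among them.

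Of 25 calcium handling genes 11 rose (44.0%) and 3 fell (12.0%), with a median of 0.44 against 0.18 over all named genes. Of the 12 members well above background on all 14 arrays, 8 rose (66.7%) and 1 fell (8.33%). Over all named genes of that kind 40.5% rose and 21% fell. Ano1, the calcium-activated chloride channel that depolarises smooth muscle, ran from 2.00 through 2.12 to 2.90 in saline and from 3.40 through 3.64 to 3.88 in high-dose SXC. The groups did not overlap, and the rise of 1.30 ± 0.18 (SE; adjusted p = 8.87e-07) was alike in arrays 1 and 2 (1.35) and in arrays 3 to 6 (1.27). Itpr1, the inositol trisphosphate receptor that releases calcium from stores, rose by 0.62 ± 0.12 (SE), although its other probe differed in the opposite direction. Atp2a2, the pump that refills the stores, rose by 0.44 ± 0.13 (SE), a call lost with the replicate number as a block (0.35, adjusted p = 0.0625) and with the percentile over probes counted once each (0.29, adjusted p = 0.0896). Cacna1c, the L-type channel that carries calcium inward, differed by 0.08 ± 0.24 (SE), which did not pass (adjusted p = 0.798).

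Of 66 potassium channel genes 29 rose (43.9%) and 4 fell (6.06%), with a median of 0.78. Their median stayed above 0 after quantile normalisation (0.28) and in the deposited log2 values (0.29). Many were faint: the median of the members' saline means was -4.35, against -2.09 over all named genes. Among named genes with saline levels up to -4.35, 57.5% rose and the median after quantile normalisation was 0.24. Of the 16 channel genes well above background on all 14 arrays, 11 rose (68.8%) and 0 fell. Over all named genes of that kind the shares were 40.5% and 21%. The part of faintness in the rises was not tested. Kcnj8, the pore of the ATP-sensitive channel of vascular smooth muscle, ran from 1.83 through 1.91 to 2.04 in saline and from 2.20 through 2.42 to 3.03 in high-dose SXC, a rise of 0.55 ± 0.14 (SE) that was lost with the percentile over probes counted once each (0.40, adjusted p = 0.0502). Kcnq1, a delayed rectifier, ran from -1.02 through -0.30 to 0.51 in saline and from 1.14 through 1.74 to 2.82 in high-dose SXC, a rise of 2.22 ± 0.23 (SE). Neither pair of groups overlapped. The largest differences were in channel genes best known from neurons, all faint in saline: Kcng1 (4.83), Kcnip1 (4.76), Kcnj3 (4.57) and Kcna6 (4.41). Each of these was larger in arrays 3 to 6 (5.87, 5.52, 5.41 and 5.04) than in arrays 1 and 2 (2.73, 3.25, 2.90 and 3.14).

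In the nitric oxide and cyclic GMP list 11 of 24 genes rose (45.8%) and 5 fell (20.8%). Of the 11 rises, 2 were in genes well above background on no saline array, whose direction follows from the filter. Nos3, the endothelial nitric oxide synthase, ran from -2.68 through -2.48 to -2.14 in saline and from -5.21 through -3.49 to -3.16 in high-dose SXC, a difference of -1.33 ± 0.27 (SE; adjusted p = 0.000158). After normexp background correction the difference was -0.35 and did not pass (adjusted p = 0.137). Cav1, caveolin, which binds and inhibits that enzyme, fell by 0.53 ± 0.09 (SE) and was bright on every array, but the call was lost in arrays 1 and 2 alone (-0.33, adjusted p = 0.0521). The subunits of soluble guanylate cyclase, the receptor for nitric oxide, did not pass, with differences of -0.03 ± 0.17 (SE) for Gucy1a1 and -0.12 ± 0.18 (SE) for Gucy1b1. Pde1a, a phosphodiesterase that breaks down cyclic GMP, rose by 1.56 ± 0.23 (SE). Nppa, atrial natriuretic peptide, was below the threshold for well above background throughout saline and was at least 5.11-fold higher in high-dose SXC, where 4 of 6 arrays measured it. It passed the filter only through treated arrays, so no test is given.

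Of the 6 endothelin genes tested 4 fell (66.7%) and 0 rose, 2 of them steadily. The median of the list was -1.96, and it was below 0 under each scaling tried, though nearer to 0 after normexp correction (-0.74). Of these 6 genes 0 were well above background on all 14 arrays. Edn1, the peptide itself and a strong constrictor, ran from -2.97 through -2.40 to -1.99 in saline and from -6.50 through -5.09 to -3.20 in high-dose SXC, a difference of -2.51 ± 0.38 (SE; adjusted p = 4.27e-06). Every high-dose array lay below every saline array, and 2 of 6 high-dose arrays were well above background. Ece1, the protease that releases the active peptide, fell by 1.92 ± 0.28 (SE). Ednrb, the receptor that endothelium carries, fell by 3.09 ± 0.45 (SE), with 1 high-dose array well above background. Dim array 3 (-3.23) stood above the other high-dose arrays and overlapped saline. Mme, neprilysin, which breaks the peptide down, was the remaining member that fell, from a saline range of -1.56 to 1.53 to a high-dose range of -3.79 to -1.45, was named after its value was seen, and did not pass with the replicate number as a block (adjusted p = 0.0507).

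Most markers of endothelium fell along with Nos3 and the endothelin genes, and their part in those falls was not tested. Of 12 endothelial markers 8 fell (66.7%), 2 rose and 2 did not pass. Of the 4 that were well above background on all 14 arrays, 1 fell and 1 rose. The mean level of the list ran from -1.52 to -0.39 over the saline arrays and from -3.20 to -1.51 over the high-dose arrays, so the groups touched at dim array 3. The tight junction gene Cldn5 ran from -0.65 to 0.57 in saline and from -4.00 to -3.04 in high-dose SXC (-3.40 ± 0.31, SE), and the adhesion molecule Esam fell by 2.89 ± 0.28 (SE). The exceptions, named after their values were seen, were Cdh5, the endothelial cadherin (1.72 ± 0.24, SE), and the transcription factor Sox18 (1.65 ± 0.20, SE), which rose.

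Among 22 adrenergic and other pressor receptor genes 10 rose (45.5%), 6 of them steadily, and 4 fell (18.2%). The list's median was 0.43, but -0.16 after quantile normalisation. Of the 9 members well above background on all 14 arrays, 7 rose (77.8%) and 0 fell, against 40.5% and 21% over all named genes. Adra1d, the alpha-1D receptor that mediates contraction of the rat aorta, ran from -0.31 through 0.11 to 0.62 in saline and from 0.78 through 1.09 to 1.72 in high-dose SXC, a rise of 1.02 ± 0.15 (SE; adjusted p = 4.09e-06). P2ry6, a receptor for uridine diphosphate that constricts vessels, rose by 1.81 ± 0.18 (SE), from a saline range of -0.20 to 0.93 to a high-dose range of 1.88 to 2.37. Both rises were of like size in arrays 1 and 2 (1.26 and 1.86) and in arrays 3 to 6 (0.90 and 1.78). Adra1a rose by 3.89 ± 0.35 (SE) and the receptor kinase Grk2 by 4.45 ± 0.50 (SE), and both rises were smaller in arrays 1 and 2 (2.61 and 2.64) than in arrays 3 to 6 (4.52 and 5.35). In the prostanoid list 4 of 21 rose (19.0%) and 6 fell (28.6%). Ptgis, prostacyclin synthase, fell by 1.52 ± 0.29 (SE), and the difference of -1.10 in arrays 1 and 2 alone did not pass (adjusted p = 0.0623). Tbxas1, thromboxane synthase, fell by 1.45 ± 0.24 (SE).

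The matrix lists differed in their shares. Of 27 elastic fibre and crosslinking genes 9 rose (33.3%) and 4 fell (14.8%), of 17 collagens 3 rose (17.6%) and 4 fell (23.5%), and of 26 proteoglycan and matricellular genes 2 rose (7.69%) and 8 fell (30.8%). Several of the abundant structural transcripts hardly moved, but not all. Eln, elastin, differed by 0.16 ± 0.17 (SE), Col1a1 by -0.12 ± 0.18 (SE) and Bgn, biglycan, by 0.02 ± 0.16 (SE), none of which passed, while Col1a2 fell by 0.81 ± 0.15 (SE). The difference of Col1a2 was -0.33 in arrays 1 and 2 (adjusted p = 0.181) and -1.04 in arrays 3 to 6. Col3a1 differed by -0.28 ± 0.15 (SE; adjusted p = 0.12), and passed without saline array 3 (-0.36, adjusted p = 0.0371) or array 7 (-0.37, adjusted p = 0.0204).

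Several matrix genes around these did differ. Vcan, versican, a large proteoglycan that loosens the matrix, ran from 1.21 through 2.60 to 2.70 in saline and from 3.26 through 3.56 to 3.93 in high-dose SXC, a rise of 1.36 ± 0.23 (SE), although its other probe differed in the opposite direction. Emilin1, a glycoprotein at the rim of elastic fibres, rose by 1.12 ± 0.19 (SE). Efemp1, fibulin-3, ran from 0.46 to 1.56 in saline and from -2.64 to -1.13 in high-dose SXC, a difference of -2.67 ± 0.23 (SE). Fbn1, fibrillin-1, did not pass (-0.07 ± 0.20, SE), whereas Fbn2, its developmental relative, rose by 3.30 ± 0.41 (SE). The crosslinking enzyme Loxl2 fell by 1.60 ± 0.30 (SE), the collagen hydroxylase P4ha1 by 1.17 ± 0.19 (SE) and the basement membrane laminin chain Lamb2 by 1.49 ± 0.19 (SE).

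Matrix proteases and their inhibitors were split, with 7 of 30 higher (23.3%) and 8 lower (26.7%). Of the 7 rises, 1 was in a gene well above background on no saline array, whose direction follows from the filter. Mmp14, the membrane-bound protease that activates gelatinase A, ran from 2.78 through 3.91 to 3.96 in saline and from 4.44 through 4.48 to 4.71 in high-dose SXC. All high-dose arrays lay above saline, and the rise was 0.94 ± 0.17 (SE). Adamts9, which cleaves versican, rose by 0.90 ± 0.14 (SE), and the inhibitor Timp4 fell by 1.34 ± 0.21 (SE). Mmp2, gelatinase A, did not pass (-0.15 ± 0.22, SE), nor did its inhibitor Timp1 (-0.01 ± 0.24, SE). Among 9 fibroblast markers 4 fell (44.4%) and 1 rose, Thy1 (1.16 ± 0.38, SE), whose sign turned under quantile normalisation (-0.46) and in the deposited values of the authors (-0.17). The mean level of the list ran from 0.30 to 1.79 over the saline arrays and from -0.24 to 0.23 over the high-dose arrays. Pi16, which marks progenitor-like fibroblasts of the adventitia, ran from 2.40 through 2.98 to 3.59 in saline and from -2.22 through -0.64 to -0.33 in high-dose SXC (-3.84 ± 0.23, SE). Dpep1 fell by 1.73 ± 0.20 (SE) and Pdgfra, a receptor of fibroblast growth, by 1.69 ± 0.26 (SE). These markers moved with Scara5, Dcn and Efemp1, and their part in those falls was not tested.

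In the list of transforming growth factor beta and bone morphogenetic proteins 10 of 30 rose (33.3%) and 10 fell (33.3%). Among ligands, Bmp4 fell by 2.02 ± 0.24 (SE). Among receptors, Tgfbr1 rose by 0.76 ± 0.21 (SE), Bmpr2 fell by 0.84 ± 0.14 (SE), and Tgfbr2 rose by 1.80 ± 0.29 (SE), though by 0.67 in arrays 1 and 2 alone, where it did not pass (adjusted p = 0.12). Among signal carriers, Smad5 rose by 1.98 ± 0.26 (SE) and the inhibitory Smad7 by 1.33 ± 0.22 (SE). Tgfbi, an adhesion protein induced by the pathway, ran from 0.36 through 0.62 to 1.10 in saline and from -2.64 through -1.76 to -1.44 in high-dose SXC. The groups lay apart, and the difference of -2.56 ± 0.18 (SE; adjusted p = 6.23e-11) was of like size in arrays 1 and 2 (-2.65) and in arrays 3 to 6 (-2.52).

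Of 33 vascular growth factor genes 10 rose (30.3%) and 12 fell (36.4%). Angpt1, the ligand that keeps endothelium quiescent, ran from -0.41 through -0.08 to 0.37 in saline and from -3.31 through -2.82 to -2.37 in high-dose SXC, a difference of -2.76 ± 0.21 (SE). Igf1, insulin-like growth factor 1, fell by 1.09 ± 0.14 (SE) and its carrier Igfbp3 by 1.81 ± 0.20 (SE). The receptors Fgfr2 (1.50 ± 0.17, SE) and Met (3.66 ± 0.37, SE) rose, Fgfr2 by like amounts in arrays 1 and 2 (1.69) and 3 to 6 (1.41), and Met by less in arrays 1 and 2 (2.14) than in arrays 3 to 6 (4.41).

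Notch and Wnt genes were likewise divided, with 13 of 36 higher (36.1%) and 12 lower (33.3%). Notch3, the Notch receptor of vascular smooth muscle, ran from -2.93 through -2.48 to -1.93 in saline and from -0.996 through -0.02 to 0.65 in high-dose SXC, a rise of 2.30 ± 0.24 (SE; adjusted p = 1.58e-08). Hey1, a target of Notch signalling, ran from -1.07 through -0.43 to 0.07 in saline and from 2.90 through 4.48 to 5.21 in high-dose SXC, a rise of 4.85 ± 0.35 (SE; adjusted p = 6.23e-11). All high-dose arrays lay above saline for both genes, and the rise of Hey1 was 3.86 in arrays 1 and 2 and 5.34 in arrays 3 to 6. In the Wnt pathway, the transcription factor Tcf7l1 rose by 4.31 ± 0.32 (SE), and the receptors Fzd1, from a saline range of 0.91 to 1.81 to a high-dose range of 2.06 to 2.51, and Fzd2 (1.63 ± 0.23, SE) rose as well.

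The circadian clock is a feedback loop in which Bmal1 and its partner drive the Per, Cry and Nr1d1 genes through E-boxes, while Nr1d1 and its rivals act on Bmal1 through the ROR element and Dbp acts through D-boxes. Promoters are shown for 3 genes of the list whose 250 bases before the start hold such a motif and which passed the test; Ciart and Per2 were chosen after their values were seen. They are RefSeq sequences of the GRCr8 build, printed 5′ to 3′ on the strand of the gene, and capitals mark the motif. The Ciart promoter (chr2:186112247-186112496, minus strand) holds 3 E-boxes (CACGTG), the Bmal1 promoter (chr1:176766078-176766327, plus strand) holds 1 ROR element (NTAGGTCA), and the Per2 promoter (chr9:99496994-99497243, minus strand) holds 1 D-box (TTANGTAA).
Ciart: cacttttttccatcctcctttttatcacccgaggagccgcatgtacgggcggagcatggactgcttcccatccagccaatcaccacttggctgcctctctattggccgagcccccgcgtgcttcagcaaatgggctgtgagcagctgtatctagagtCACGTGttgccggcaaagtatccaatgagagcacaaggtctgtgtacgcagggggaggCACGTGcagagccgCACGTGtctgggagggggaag
Bmal1: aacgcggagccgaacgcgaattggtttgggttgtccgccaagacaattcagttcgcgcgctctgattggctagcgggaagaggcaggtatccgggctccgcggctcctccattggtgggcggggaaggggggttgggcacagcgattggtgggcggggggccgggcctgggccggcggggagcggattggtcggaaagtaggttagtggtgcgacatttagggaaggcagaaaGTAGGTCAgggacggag
Per2: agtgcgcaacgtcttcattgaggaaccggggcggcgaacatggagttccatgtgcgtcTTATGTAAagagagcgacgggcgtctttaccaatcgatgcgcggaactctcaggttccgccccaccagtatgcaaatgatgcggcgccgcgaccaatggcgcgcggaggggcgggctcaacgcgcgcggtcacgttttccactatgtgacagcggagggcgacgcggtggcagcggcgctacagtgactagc
On either strand of 33469 RefSeq promoter windows of the same length, an E-box was found in 5.59%, a D-box in 2.04% and a ROR element in 2.24%. Of the clock genes with a promoter entry, 2 of 10 that rose, 0 of 4 that fell and 1 of 2 that did not pass held an E-box. A match of letters is a description and not a binding site.

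Of 20 clock genes 11 rose (55.0%) and 6 fell (30.0%), so that 17 passed in all against a background of 57.8%. The members differed in both directions. Bmal1 ran from -1.14 through -0.67 to 0.24 in saline and from -3.91 through -1.69 to -0.93 in high-dose SXC, a difference of -1.30 ± 0.40 (SE; adjusted p = 0.00741), with the groups overlapping and array 4 far below the rest. Dbp, an output of the loop, ran from 1.10 through 2.28 to 2.93 in saline and from 3.21 through 3.46 to 4.87 in high-dose SXC, a rise of 1.58 ± 0.27 (SE; adjusted p = 2.6e-05). Nr1d1, the repressor of Bmal1, ran from -4.81 through -4.14 to -3.99 in saline and from -2.85 through -2.27 to -1.49 in high-dose SXC, a rise of 2.14 ± 0.30 (SE). For Dbp and Nr1d1 all high-dose arrays lay above saline.

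Usp2, a rhythmic deubiquitinase, rose by 1.23 ± 0.17 (SE), Per1 by 1.10 ± 0.29 (SE) and Ciart, a repressor of the loop, by 0.87 ± 0.29 (SE). Cry1 fell by 2.72 ± 0.22 (SE) and Per2 by 0.63 ± 0.11 (SE). Csnk1e, the kinase that marks Per proteins, had the largest difference (5.29 ± 0.38, SE). The calls of Bmal1, Per1 and Ciart were lost in arrays 1 and 2 alone, where the differences were -0.64, 0.67 and 0.75 (adjusted p = 0.338, 0.208 and 0.168). Per1 and Ciart did not pass after quantile normalisation either (0.62 and 0.66, adjusted p = 0.0648 and 0.0715), nor Bmal1 and Per1 with saline as 3 averages (adjusted p = 0.0862 and 0.0502). The call of Ciart was also lost without high-dose array 4 (0.64, adjusted p = 0.0569). The sources used here do not say whether the groups were killed at the same hour.

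**Figure D4:**
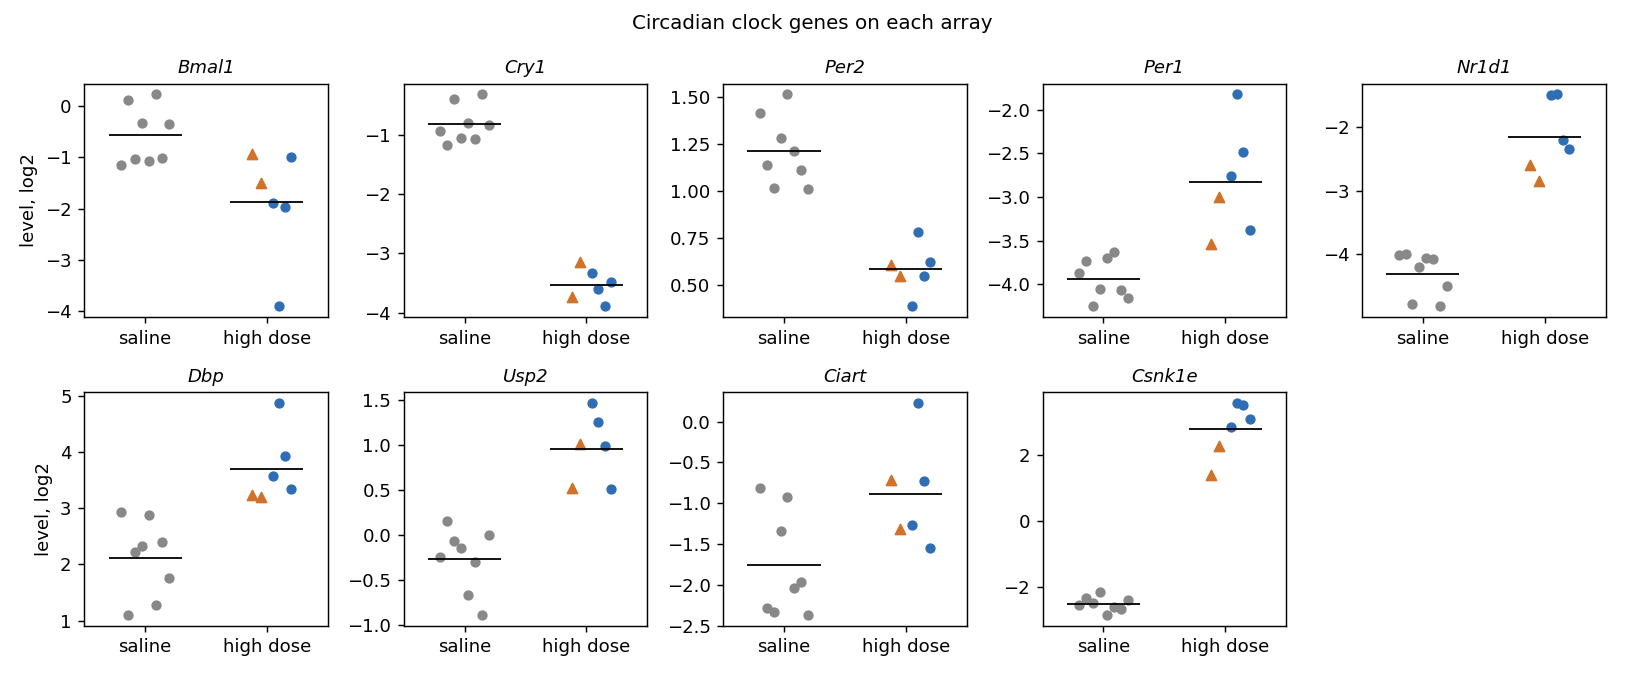
Level (log2 relative to the 75th percentile of the array) of 9 circadian clock genes on each array; grey points are the 8 saline arrays, orange triangles high-dose arrays 1 and 2, blue points high-dose arrays 3 to 6, and lines the group means. Cry1 and Per2 lie lower and Nr1d1, Dbp, Usp2 and Csnk1e higher on every high-dose array than on any saline array, while the groups overlap for Bmal1 and Ciart.

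Of 34 genes of cholesterol metabolism 10 rose (29.4%) and 12 fell (35.3%). The list's median was 0.17, but -0.56 after quantile normalisation. Of the 10 rises, 1 was in a gene well above background on no saline array, whose direction follows from the filter. Idi1, isopentenyl diphosphate isomerase, ran from -1.07 through -0.20 to 0.24 in saline and from 1.41 through 1.72 to 2.17 in high-dose SXC, a rise of 2.09 ± 0.25 (SE; adjusted p = 1.1e-07). Sqle, squalene epoxidase, ran from -1.75 through -0.37 to -0.34 in saline and from 0.68 through 1.31 to 1.83 in high-dose SXC, a rise of 2.07 ± 0.24 (SE). Msmo1, a sterol demethylase, rose by 1.57 ± 0.19 (SE), and Srebf2, the transcription factor that governs the pathway, by 0.70 ± 0.11 (SE). For these 4 genes all high-dose arrays lay above saline, and arrays 1 and 2 (2.07, 2.16, 1.64 and 0.69) gave nearly the same sizes as arrays 3 to 6 (2.10, 2.02, 1.54 and 0.71).

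Among transport genes, Abca1, the exporter of cholesterol, ran from -2.53 through -2.46 to -2.38 in saline and from -6.23 through -5.15 to -3.28 in high-dose SXC, a difference of -2.51 ± 0.36 (SE), with 1 of 6 high-dose arrays well above background. Scarb1, a receptor for high-density lipoprotein, fell by 1.48 ± 0.23 (SE). Macrophages express Abca1 and Scarb1, and 12 of 16 macrophage markers fell, their mean level running from -1.08 to -0.01 over the saline arrays and from -2.16 to -1.88 over the high-dose arrays. Their part in these falls was not tested. The sterol response motif TCACNCCAC was found in 0 of 24 promoters of the list and in 0.97% of all promoters.

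**Figure D5:**
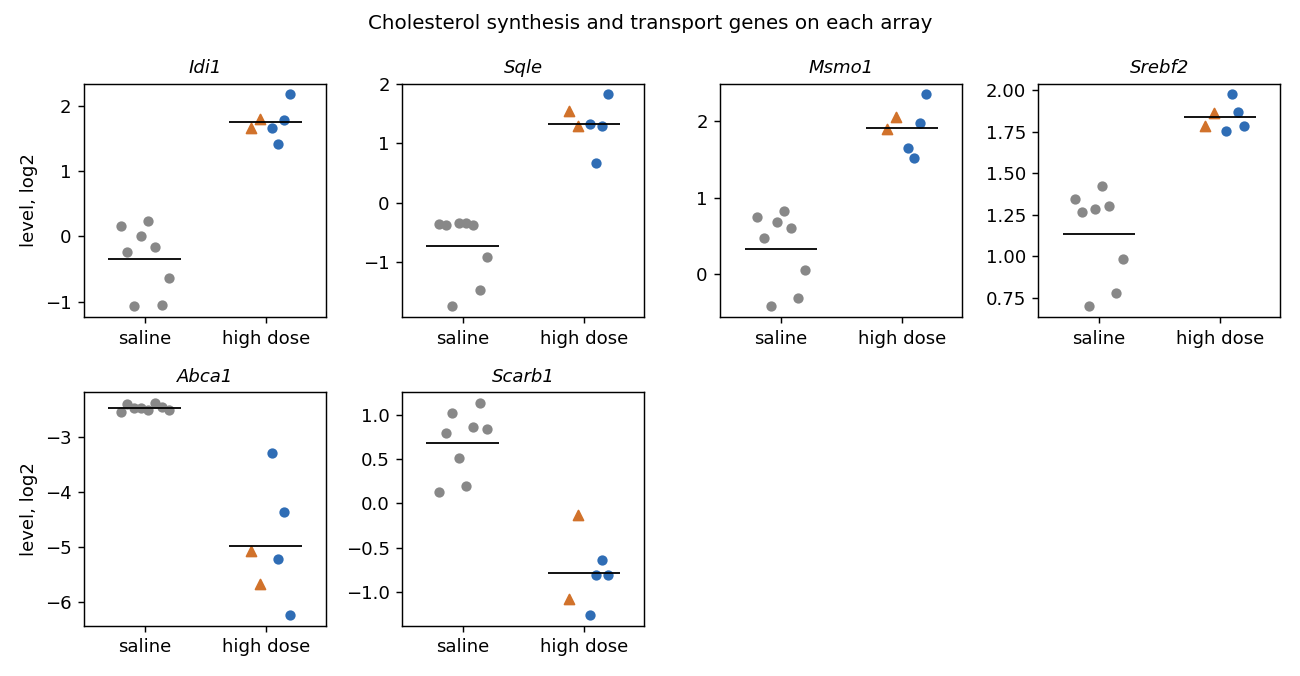
Level (log2 relative to the 75th percentile of the array) of 6 genes of cholesterol synthesis and transport on each array; grey points are the 8 saline arrays, orange triangles high-dose arrays 1 and 2, blue points high-dose arrays 3 to 6, and lines the group means. Idi1, Sqle, Msmo1 and Srebf2 lie higher and Abca1 and Scarb1 lower on every high-dose array than on any saline array.

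Genes of the xenobiotic response, which detoxify foreign chemicals, fell more often than the background: 15 of 29 were lower (51.7%), 10 of them steadily, and 5 were higher (17.2%). The median was -0.61, and it was below 0 under each scaling tried. Gsta3, a glutathione transferase, ran from 2.74 through 3.11 to 3.50 in saline and from 0.33 through 0.74 to 1.65 in high-dose SXC, a difference of -2.29 ± 0.23 (SE; adjusted p = 9.64e-09). Gsta1 fell by 1.29 ± 0.13 (SE), the aldehyde dehydrogenase Aldh3a1 fell by 2.37 ± 0.28 (SE), and Gclc, the rate-limiting enzyme of glutathione synthesis, fell by 0.77 ± 0.13 (SE). The drug exporter Abcc1 rose by 1.10 ± 0.16 (SE), while 1 of its 3 probes differed in the opposite direction. The antioxidant response motif TGACNNNGC was found in 2 of 13 promoters of genes that fell, 0 of 5 that rose and 2 of 8 that did not pass, and in 10.08% of all promoters.

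Falls outnumbered rises among translation factors and among genes that break protein down. Of 34 translation factors 18 fell (52.9%) and 4 rose (11.8%), of 44 proteasome subunits 23 fell (52.3%) and 8 rose (18.2%), and of 38 lysosome and autophagy genes 19 fell (50%) and 6 rose (15.8%). The medians of these lists (-0.40, -0.40 and -0.53) were below 0 under each scaling tried. They were nearer to 0 in arrays 1 and 2 (-0.21, -0.14 and -0.38) than in arrays 3 to 6 (-0.53, -0.49 and -0.63). Map1lc3b, a membrane marker of autophagosomes, ran from 2.37 through 2.58 to 2.83 in saline and from 1.05 through 1.25 to 1.39 in high-dose SXC. All high-dose arrays lay below saline, and the difference was -1.36 ± 0.10 (SE; adjusted p = 5.52e-11).

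In the same group the lysosomal membrane proteins Lamp1 (-0.94 ± 0.11, SE) and Lamp2 (-1.21 ± 0.13, SE), the sphingolipid activator Psap (-1.16 ± 0.12, SE) and the autophagy initiators Becn1 (-1.69 ± 0.18, SE) and Atg12 (-1.90 ± 0.20, SE) fell. Psmc1, an ATPase of the proteasome cap, ran from 1.59 through 1.66 to 1.80 in saline and from -0.30 through -0.06 to 0.62 in high-dose SXC, a difference of -1.66 ± 0.13 (SE; adjusted p = 2.54e-10). Psmc3 (-1.66 ± 0.17, SE), Psmd8 (-1.54 ± 0.15, SE) and the interferon-inducible activator Psme1 (-1.39 ± 0.11, SE) fell too. Among translation factors Eif4ebp1, the repressor that mTOR switches off, fell by 1.76 ± 0.22 (SE), Eif1, which helps choose the start codon, by 1.24 ± 0.11 (SE), Eif3d by 1.41 ± 0.17 (SE) and Naca, a chaperone of nascent chains, by 1.34 ± 0.12 (SE). Eef1a1, the very abundant elongation factor, fell by 0.63 ± 0.15 (SE), but differed by -0.04 in arrays 1 and 2 (adjusted p = 0.873) against -0.92 in arrays 3 to 6.

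Cytosolic ribosomal proteins did not share in this: 16 of 74 rose (21.6%) and 16 fell (21.6%), as with Rpl15 (1.06 ± 0.17, SE) and Rps2 (-0.76 ± 0.12, SE), and the median was 0.09. Among 33 heat shock genes and chaperones 7 rose (21.2%) and 10 fell (30.3%). Cct5 (-1.96 ± 0.16, SE) and Cct2 (-1.67 ± 0.19, SE), subunits of the chaperonin that folds actin and tubulin, and Hspa9, the mitochondrial chaperone (-1.62 ± 0.23, SE), fell. Hspb7, a small heat shock protein of muscle, ran from -1.09 through -0.13 to 0.89 in saline and from 2.34 through 2.79 to 3.14 in high-dose SXC, a rise of 2.88 ± 0.41 (SE) that was 2.86 in arrays 1 and 2 and 2.88 in arrays 3 to 6. In the unfolded protein response 7 of 20 rose (35.0%) and 4 fell (20.0%). Herpud1 (-1.15 ± 0.12, SE) and Dnajc3 (-1.60 ± 0.16, SE), which relieve the endoplasmic reticulum, fell, and Trib3, a stress-induced pseudokinase, rose by 3.08 ± 0.35 (SE).

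Olfactory receptors, which adult aorta is not known for, were mostly higher. Of 408 olfactory receptor genes that could be tested, out of 1280 in the RefSeq table, 343 rose (84.1%) and 1 fell, Or2y16 (-2.31 ± 0.70, SE), named after its value was seen. The fall of Or2y16 did not pass in arrays 1 and 2 alone (-2.33, adjusted p = 0.0989). Of the 408, 53, all among the rises, were well above background on 0 of 8 saline arrays and so passed the filter only through treated arrays. Another 49 were well above background on all 14 arrays. Of these 49, 47 rose (95.9%) and 0 fell, against 40.5% and 21% of all named genes well above background on all 14 arrays. The median difference was 2.35, and it was 1.47 in arrays 1 and 2 and 2.77 in arrays 3 to 6. Or2d2 ran from -2.18 to -0.70 on 7 saline arrays, the eighth being marked as an outlier spot, and from 2.93 to 4.44 in high-dose SXC (5.26 ± 0.44, SE). Or1f32 was below the threshold for well above background throughout saline and was at least 16.5-fold higher in high-dose SXC, and as it passed the filter only through treated arrays no test is given.

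Keratins (14 of 20 higher, 70.0%, and 0 lower) and protocadherins (16 of 29 higher, 55.2%, and 0 lower) moved the same way, with medians of 1.46 and 0.91. The medians of both lists were smaller after quantile normalisation (0.59 and 0.04). Hox genes, which hold positional identity along the body axis, rose in 8 of 15 cases (53.3%) and fell in 3 (20.0%), with Hoxc5 higher by 2.67 ± 0.35 (SE) and Hoxa7 lower by 1.15 ± 0.24 (SE). Of the 8 rises, 2 were in Hox genes well above background on no saline array, which passed the filter only through treated arrays. These lists were faint in saline: the median of the members' saline means was -5.58 for olfactory receptors, -4.68 for keratins, -4.21 for protocadherins and -4.47 for Hox genes, against -2.09 over all named genes. That faintness moved with the rises, and its part in them was not tested.

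Markers of other cell types and tissues also rose in part, in lists of few tested members: in 8 of 11 cases for liver (72.7%), 5 of 6 for neurons, 5 of 6 for T cells, 4 of 8 for lung epithelium and 3 of 6 for testis germ cells, while 0, 0, 0, 1 and 0 of them fell. The medians of these lists (2.06, 1.11, 1.15, 0.95 and 1.34) were smaller after quantile normalisation (1.13, 0.14, 0.30, 0.03 and 0.15). All 5 lists were faint in saline, with median saline means of -4.8, -4.7, -4.5, -5.3 and -4.4. Among named genes with saline levels up to -4.35, 57.5% rose. Only 2, 0, 2, 1 and 0 members were well above background on all 14 arrays. The liver mean on high-dose array 1 (-4.61) lay within the saline range (-4.88 to -3.32). The part of faintness in these rises was not tested. Of the 8 liver rises, 1 was in a gene well above background on no saline array, whose direction follows from the filter. Tssk3, a kinase of spermatids, ran from -6.53 to -4.39 in saline and from 0.49 to 1.33 in high-dose SXC (6.40 ± 0.46, SE), and Tnp1, a transition protein of sperm, rose by 2.88 ± 0.33 (SE). Ttr, the liver's carrier of thyroid hormone, rose by 5.04 ± 0.95 (SE), with saline array 8 (-6.89) far below the other saline arrays. Myl2, the ventricular light chain of the heart, rose by 5.40 ± 0.57 (SE), though 4 of 10 striated muscle markers fell. Sox10, a factor of Schwann cells, rose by 4.36 ± 0.40 (SE), 2.95 in arrays 1 and 2 and 5.07 in arrays 3 to 6.

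The high dose was also set directly against the low dose for the genes above, since both share the saline arrays. Of 12240 named genes 2627 differed between the doses (21.5%), 1969 higher and 658 lower in the high dose. The 15 largest rises had a median difference from saline of 2.35 at the low dose and the 15 largest falls one of -2.50. These genes were chosen for their size at the high dose, so no count of them is given as a test of dose. With detector gain as a block, so that the comparison rests on high-dose arrays 1 and 2, 0 of 12240 genes passed (smallest adjusted p = 0.723), while 563 (4.60%) had an unadjusted p under 0.05.

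Without that block, some clock and Hox genes that moved at the high dose were close to saline at the low dose. Dbp differed from saline by 0.13 at the low dose, 1.45 below the high dose (adjusted p = 0.00125), and Bmal1 by 0.29 at the low dose (adjusted p = 0.00981 for the difference between doses). Ciart differed by -1.10 from saline at the low dose and by 0.87 at the high dose (adjusted p = 0.000206). Hoxa7 differed by -0.11 at the low dose (adjusted p = 0.0057), and Hspb7 by 1.08, against 2.88 at the high dose (adjusted p = 0.00553). In contrast, Idi1 (2.56), Sqle (2.42), P2ry6 (1.91), Tgfbi (-2.57) and Map1lc3b (-1.31) differed from saline at the low dose by amounts that did not pass as different from those at the high dose (adjusted p = 0.2, 0.347, 0.739, 0.971 and 0.787).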

How the data were processed

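Total RNA of each aorta was labelled with Cy3 and read on 1-colour Agilent rat arrays. Per the file headers, the authors quantified the scans with Agilent Feature Extraction 11.0.1.1; the deposited intensity used here, the processed signal, was background-subtracted and detrended within each array and not scaled between arrays. The authors' deposited table of log2 values, whose method the sources used here do not state, has column medians of 5.75 to 5.76 and served as an alternative; its normalisation stays unknown. The spot flags and other 0 or 1 columns are as deposited by the authors.

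Control spots and outlier spots were left out, spots of a probe averaged, and log2 values centred on each array's 75th percentile over spots. A probe was tested if at least 6 of 26 arrays had it well above background (23744 of 30367). Probes were named through RefSeq accessions: 18005 had 1 symbol, 0 several and 12362 none. The headers name an older build, so no probe coordinates are given; a gene stands for its brightest probe.

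All 26 arrays entered a single limma 3.58.1 fit in R 4.3.3 (eBayes with trend, 2-sided, adjusted p under 0.05 over all probes), checked on simulated data. The p-values measure the spread between these arrays. Where no array of a group had a gene well above background, it is given as at least N-fold, computed as bright group mean against the higher of the dim probe's own signal and the lowest signal well above background. The members and gene lists were chosen with earlier results of these data known. Named are the 15 largest steady rises and falls well above background on all 14 arrays, outside blood, macrophage and fat lists, and, per list, its first 3 members (families: the 5 brightest) or up to 5 steady members with the smallest p. Some genes that this rule names are not reported here. The alternatives tried were quantile normalisation, normexp correction (offset 50, on the median spot signal), the deposited log2 values, percentiles over other probe sets, other filters, fewer arrays, no trend, slide, scan day, gain or replicate number as a block, and leaving out each array.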

Additional observations from a re-analysis of the deposited data

Results flagged for a closer look

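Among the genes named above, some groups held an array whose gap to its neighbour exceeded the critical value of Dixon's test for the size of the group; chance gives about 1 in 20 such groups, and 21 of 392 groups tested were found, close to that rate. All values are log2 levels, and no cause was tested.

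Of the 21, 9 concern the dimmest array, high-dose array 3. It was high for Des (2.84, others 1.92 to 2.26), Pkhd1l1 (-0.18, others -3.61 to -2.75) and Ednrb (-3.23, others -6.75 to -5.57). It was low for Scara5 (0.0424, others 0.90 to 1.17), Efemp1 (-2.64, others -1.48 to -1.13), Loxl2 (-3.31, others -2.47 to -2.24), Pi16 (-2.22, others -0.82 to -0.33), Dpep1 (-3.30, others -2.19 to -1.53) and Psme1 (1.90, others 2.24 to 2.43).

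High-dose array 1 was low for Hbb-bs (-2.35, others -0.60 to 0.39), Hbe2 (-1.51, others 0.09 to 0.91), Pecam1 (-1.26, others -0.22 to 0.23) and Slc13a2 (0.82, others 1.44 to 1.64). High-dose array 4 was low for Glul (-0.46, others -0.05 to 0.20), Klf4 (1.05, others 1.79 to 2.20) and Bmal1 (-3.91, others -1.98 to -0.93), and high-dose array 2 was high for Bgn (7.58, others 6.71 to 7.03).

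Among saline arrays, array 6 was high for Rph3a (-4.53, others -5.01 to -4.82), array 4 was high for Fam161a (-1.48, others -2.98 to -2.36), array 5 was low for Nkx6-2 (-4.73, others -4.25 to -3.85) and array 8 was low for Ttr (-6.89, others -2.94 to -2.22).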

How the results depend on the processing

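The count of probes called moved most with the detector gain, which went together with slide and scan day in the high-dose arrays. Against 8465 higher and 5084 lower (13549 in all), the fit with gain as a block called 4331 and 2174 (6505), and high-dose arrays 1 and 2 alone called 4592 and 2469 (7061), with fewer arrays in both. The count called higher was 5437 after quantile normalisation, 5446 in the authors' deposited values, 13052 after normexp correction and 13988 with no filter on dim probes, which adds faint probes. Leaving out each array in turn gave 7953 to 8646 higher and 4635 to 5304 lower (12588 to 13816 in all). Scan day as a random block (correlation 0.17) gave 9762 calls and saline as 3 averages of arrays 1 and 5, 2 and 6, and 3 and 7 gave 9780. Of 12240 named genes 2627 differed between the doses, and 0 with gain as a block. The percentile over probes counted once each, chosen after seeing the data, moved the median difference of all probes from 0.25 to 0.10. With the replicate number as a block, 11340 probes passed; same-numbered arrays did not deviate together (r = -0.07 to 0.27), and the labels do not say that numbers pair rats. Of 196 named genes, 169 kept their side of the threshold under all 31 alternatives, with the same direction wherever a test passed. A turned sign was counted only if the gene passed in the main fit or in the alternative. By that count the sign of 1 turned: Thy1 was -0.46 under quantile normalisation and -0.17 in the deposited log2 values. In high-dose arrays 1 and 2 alone 16 lost their call. In the fits that left out 1 array, only Ciart and Myocd lost a call, each in some of these fits. Ciart lost its call without high-dose array 4. Myocd lost its call without saline array 3 or 7 or high-dose array 2 or 6 (0.52 to 0.62, adjusted p = 0.0516 to 0.0711). The causes were not tested. Nox4 (-0.92, adjusted p = 0.00966) and Acta2 (-0.84, adjusted p = 0.00825) passed only with the replicate block or, for Acta2, without saline array 7. The dim arrays 3 to 6 limit what can be said of faint genes, and the independence of the 8 saline arrays is not known.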

Other observations

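Splicing factors were split, with 14 of 40 higher (35.0%) and 8 lower (20.0%), near the background. Tra2a, an activator of exon inclusion, ran from 1.24 through 1.37 to 1.49 in saline and from 2.58 through 2.89 to 3.08 in high-dose SXC, a rise of 1.50 ± 0.11 (SE; adjusted p = 5.82e-11) that was 1.51 in arrays 1 and 2 and 1.49 in arrays 3 to 6. Hnrnpa1 (0.78), Hnrnph1 (1.03) and Sf3a3 (0.95) rose by like amounts in both sets of arrays, whereas Hnrnpd (-2.11) and the helicase Ddx5 (-1.06) fell. Both falls were smaller in arrays 1 and 2 (-1.26 and -0.56) than in arrays 3 to 6 (-2.53 and -1.31). Of 63 mitochondrial ribosomal proteins 18 fell (28.6%) and 9 rose (14.3%), with Mrpl3 (-2.58) and Mrps5 (-1.75) among the falls.

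Of 33 cell cycle genes 9 rose (27.3%) and 1 fell, the retinoblastoma gene Rb1 (-1.12 ± 0.13, SE). The mitotic activator Cdc20 rose by 3.91 ± 0.32 (SE), the inhibitor Cdkn1c by 2.69 and E2f1 by 1.46, while Cdk1 (-0.41 ± 0.50, SE) and Ccnb1 (-0.66 ± 0.57, SE) did not pass. The rises of Cdc20, Cdkn1c and E2f1 were 2.46, 1.33 and 0.84 in arrays 1 and 2 against 4.64, 3.38 and 1.77 in arrays 3 to 6. Among 29 immediate early genes 8 rose (27.6%) and 6 fell (20.7%): Nr4a2 rose by 1.53, Klf4 fell by 1.17 and Myc by 1.40, and Fos did not pass (0.28 ± 0.50, SE). In arrays 1 and 2 alone the calls of Nr4a2 (1.07, adjusted p = 0.0878) and Myc (-1.18, adjusted p = 0.0546) were lost.

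In glycolysis 11 of 28 fell (39.3%) and 8 rose (28.6%). The oxygen-sensing factor Hif1a fell by 1.34 ± 0.16 (SE), the phosphofructokinase Pfkl rose by 3.48 and the lactate exporter Slc16a3 by 1.48, and Hk2 did not pass (0.12 ± 0.35, SE). Among 15 genes of superoxide production 3 rose and 2 fell: Duox1 rose by 1.61 and xanthine dehydrogenase, Xdh, fell by 2.20 ± 0.32 (SE), while Nox4, the main oxidase of smooth muscle, did not pass (-0.62 ± 0.47, SE). Among integrins Itgb2, the leukocyte beta chain, fell by 2.70, and Itga1, a collagen receptor of smooth muscle, rose by 0.55 but did not pass in arrays 1 and 2 alone (0.45, adjusted p = 0.0795). Among solute carriers the citrate transporter Slc13a2 (2.93) and the metal transporter Slc11a1 (4.91) rose.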
